A study of Mus musculus with 8 samples.

Results

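The Hippo pathway genes described here comprised 34 of the 24594 genes listed in the count table. They were taken by gene symbol as a set: the effectors of the pathway, its core kinases and adaptors, its upstream regulators, the proteins that bind its effectors, and 4 of its best known target genes. The study set luminal progenitors (LPs) against mature luminal cells, labelled luminal differentiated, both freshly sorted from the mammary glands of virgin wild-type C57BL/6J mice that received no treatment. Each group had 4 bulk RNA-seq libraries. By the study's account, LPs were the c-Kit high and mature cells the c-Kit low fraction of the luminal cells sorted by flow cytometry. The labels name EpCAM, CD49f, c-Kit and CD14 as the sorting markers, without saying which of them set these libraries apart, and cells that carried erythroid, endothelial or leukocyte markers were stained for exclusion. Neither group carried a transgene or an altered allele, and nothing in the labels says whether a library came from 1 mouse or from pooled mice, so the p-values measure the spread between these libraries. The name of each LP library shares a running number with the mature library of the same replicate number, and what that number marks is not stated.

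The Hippo pathway is a kinase cascade that restrains growth and reports on cell shape, cell contact and tension. The MST kinases, with the adaptor SAV1, activate the LATS kinases, which with MOB1 phosphorylate the co-activators YAP and TAZ and so keep them in the cytoplasm. When the cascade is off, YAP and TAZ enter the nucleus, bind the TEAD transcription factors and switch on genes such as Ccn1 and Ccn2. In the mammary epithelium TAZ is known as a factor of the basal lineage. The activity of the cascade is set by phosphorylation and localisation, which RNA levels do not measure.

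The libraries held between 4410049 and 7791593 counts on genes. Levels are given as CPM, which are counts scaled to 1000000 counts on tested genes after normalisation between libraries. LP markers (Kit, Elf5, Cd14, Aldh1a3, Csn3) summed to between 16170 and 26260 CPM in the LP libraries. In the mature libraries they summed to between 342.6 and 1639 CPM, with the highest mature value in replicate 3. Markers of mature hormone-sensing cells summed to between 307.3 and 996.8 CPM in LPs and between 4370 and 6145 CPM in mature cells, so both sets of labels matched their markers, of which Kit, and possibly Cd14, was used in the sort. The 9 basal myoepithelial markers summed to at most 79.4 CPM in any library, and none passed the test between the groups (5 could be tested). Fibroblast markers summed to between 7.35 and 41.7 CPM in LPs and between 27.0 and 179.4 CPM in mature cells, led by Dcn at up to 154.2 CPM in mature cells. Immune markers summed to between 41.5 and 55.6 CPM in LPs and between 10.8 and 45.7 CPM in mature cells, most of it Cd68, and endothelial markers to at most 10.5 CPM, Pecam1 included. None of the fibroblast, immune or endothelial markers that could be tested (4, 2 and 2) passed. Mature replicate 3 stood apart in the sum of 10 stress and early-response genes, which was 14950 CPM there. The sum was 3272 to 3850 CPM in the other mature libraries and 1393 to 1900 CPM in LPs. Most of the sum in mature replicate 3 was the heat-shock genes Hspa1a at 8253 CPM and Hspa1b at 3779 CPM. Of the other genes, Fos, Fosb, Egr1 and Ier2 were highest there among mature libraries, and Jun, Junb, Atf3 and Dusp1 were not.

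Of the 34 Hippo genes, 31 had enough counts to be tested, and 8 of these (25.81%) differed between LPs and mature cells at an adjusted p under 0.05. The background was 24.7%, or 3161 of the 12816 genes tested, so the genes of the pathway passed about as often as genes in general. In LPs 3 were higher, namely Taok3, Frmd6 and Amotl1, where 10.9% of all genes were higher. In mature cells 5 were higher, namely Tead2, Lats1, Fat1, Ccn1 and Ccn2, where 13.8% of all genes were higher. The median log2 fold change over the 31 genes was -0.12, with LP set against mature so that a negative value means higher in mature cells, and it ranged from -4.24 for Ccn2 to 2.21 for Axl. Over all tested genes the median was 0.0. The 4 LP values all lay above the 4 mature values for 1 of the 31 genes (background 14.0%) and all lay below them for 7 (background 15.5%). On mm10 the genes higher in mature cells lie at chr7:45215792-45233468 (Tead2), chr10:7681200-7716461 (Lats1), chr8:44933100-45052257 (Fat1), chr3:145646971-145649985 (Ccn1) and chr10:24595442-24598683 (Ccn2). Those higher in LPs lie at chr5:117120111-117275101 (Taok3), chr12:70825456-70902234 (Frmd6) and chr9:14541966-14662974 (Amotl1). In bulk samples, fewer cells of a type and less RNA per cell cannot be told apart, and this holds for every difference given here.

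**Figure D1:**
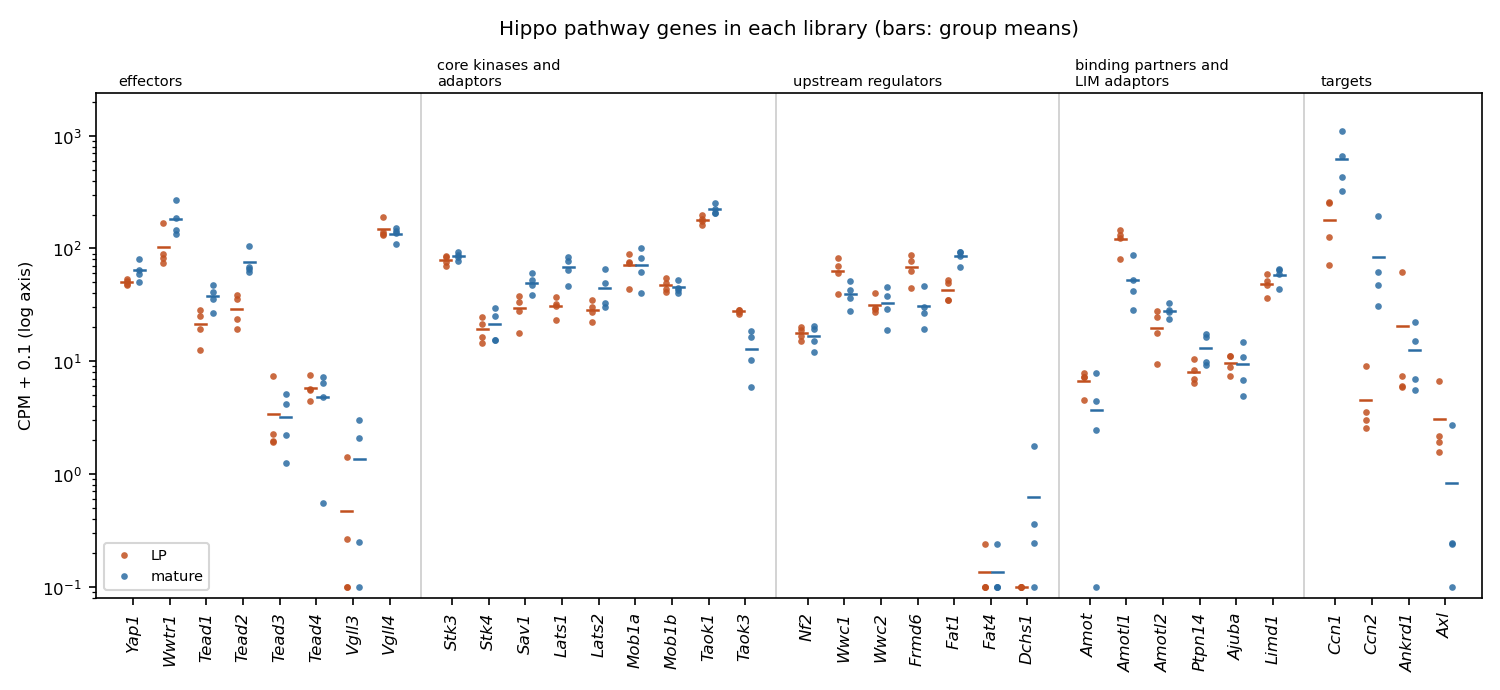
Level of each of the 34 Hippo genes in the 8 libraries, in CPM plus 0.1 on a log axis, grouped by role; dots are libraries, short bars are group means, LPs in orange and mature cells in blue. Vgll3, Fat4 and Dchs1 lie lowest, and Ccn2 has the widest gap between the groups, with LP values up to 8.97 CPM and mature values from 31.1 CPM.

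The effectors are the co-activators YAP (Yap1) and TAZ (Wwtr1), the 4 TEAD factors that carry them to DNA, and the Vestigial-like proteins, which also bind TEADs. Of the 7 effectors tested, 1 passed the test, the factor Tead2, which was higher in mature cells. Its level was 38.5, 35.7, 19.3 and 23.5 CPM in LP replicates 1 to 4 and 68.3, 65.4, 61.4 and 105.6 CPM in mature replicates 1 to 4. The lowest mature library thus exceeded the highest LP library. The fitted log2 fold change was -1.36 ± 0.27 (SE, n = 4 per group, adjusted p = 0.005), which is 2.57-fold higher in mature cells, and it kept its call in each of 19 other settings of the test.

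Counts of different genes can be compared only per length of transcript, so the TEAD factors were set side by side as CPM per kilobase of exon. On that scale Tead2 was the most abundant of the 4 in all 8 libraries. It made up 62.5% ± 7.84 (SD, n = 4) of the TEAD sum in LPs, with a range of 52.0% to 68.9%, and 77.2% ± 6.497 (SD, n = 4) in mature cells, with a range of 70.9% to 85.8%. The summed level of the family was 13.1 ± 2.77 CPM per kilobase (SD, n = 4) in LPs and 27.6 ± 5.199 (SD, n = 4) in mature cells, and the libraries of the groups did not overlap. No separate test was made of these shares and sums. Tead1 was at 12.5, 19.1, 28.6 and 25.0 CPM in LPs and 26.9, 47.5, 41.3 and 35.9 CPM in mature cells, with 1 LP library inside the mature range, and its log2 fold change of -0.83 ± 0.29 missed the threshold (adjusted p = 0.0609), and passed it with the replicate number as a block (adjusted p = 0.0363). Tead3 and Tead4 were low in both groups. Tead3 ran from 1.80 to 7.26 CPM in LPs and from 1.16 to 4.99 CPM in mature cells. The approximate 95% interval of its log2 fold change, -1.23 to 1.44, leaves a change of either direction possible. Tead4 ran from 4.30 to 7.48 CPM in LPs and from 0.452 to 7.17 CPM in mature cells, with an interval of -1.02 to 1.59.

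TAZ showed a similar size of difference to Tead1 with more scatter. Wwtr1 was at 73.8, 89.1, 168.0 and 81.9 CPM in LPs and at 134.3, 187.8, 267.6 and 147.1 CPM in mature cells. LP replicate 3 reached into the mature range, and the other 3 LP libraries lay below every mature library. Its log2 fold change of -0.84 ± 0.30 had an adjusted p of 0.065. Without LP replicate 3 it was -1.17 with an adjusted p of 0.0125, and with DESeq2 on all libraries the adjusted p was 0.0323. With the replicate number as a block, also on all libraries, the adjusted p was 0.00616, and Wwtr1 was higher in the mature library of each of the 4 same-numbered pairs. Whether Wwtr1 is counted as higher in mature cells thus turned on the test, on the block and on LP replicate 3. Replicate 3 was also the library of each group with the highest sum of basal markers, at 49.6 CPM in LPs and 79.4 CPM in mature cells. In LP replicate 3 most of that sum was Krt17 at 33.2 CPM. Krt5, Acta2 and Cnn1 were at their highest among LPs there, and Krt14, Trp63 and Myh11 at their lowest. The part of basal markers in the Wwtr1 values was not tested.

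Yap1 varied less. Its level was 48.1, 47.7, 53.8 and 51.8 CPM in LPs and 80.9, 49.9, 64.7 and 59.8 CPM in mature cells, with mature replicate 2 inside the LP range. The log2 fold change was -0.34 ± 0.18 (adjusted p = 0.189), with an approximate 95% interval from -0.70 to 0.01. Per kilobase of exon, TAZ exceeded YAP in every library, with 62.6% ± 7.34 (SD, n = 4) of their sum in LPs and 70.6% ± 8.80 (SD, n = 4) in mature cells. Vgll4, a repressor that competes with YAP for TEADs, was the Vestigial-like gene with the highest level, at 132.3 to 190.7 CPM in LPs and 108.9 to 151.0 CPM in mature cells, with a log2 fold change of 0.15 ± 0.17 (adjusted p = 0.573). Vgll3 reached at most 1.31 CPM in LPs and 2.89 CPM in mature cells and was too low to be tested.

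**Figure D2:**
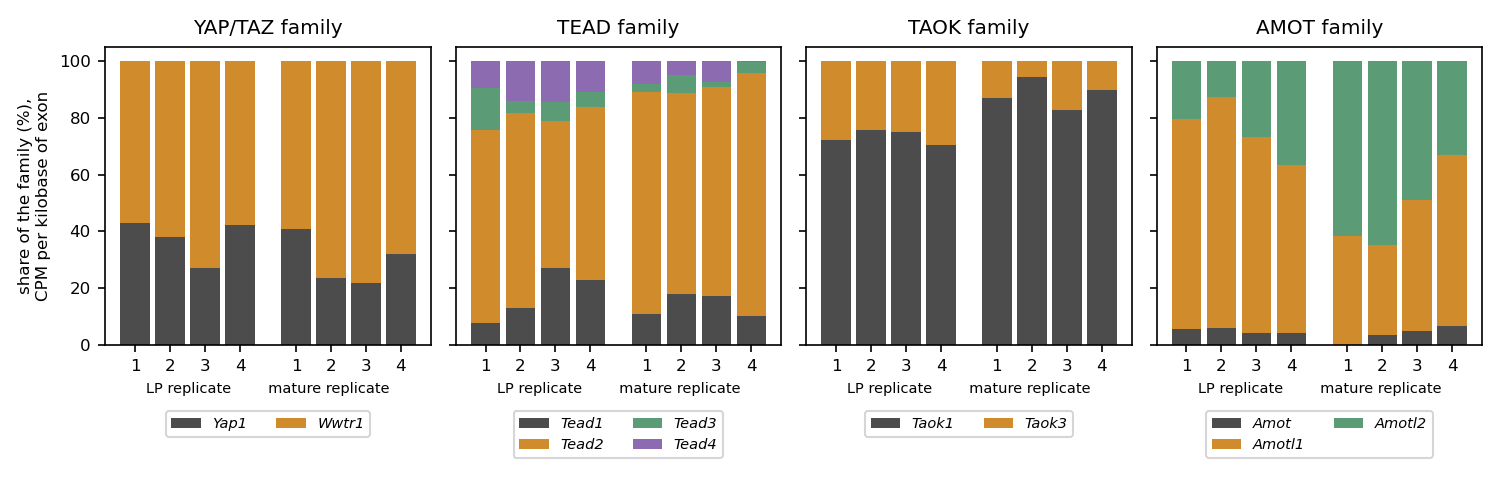
Share of each family's summed level (CPM per kilobase of exon, in percent) held by each member in each of the 8 libraries. The families are YAP and TAZ, the TEAD factors, the TAO kinases Taok1 and Taok3 (without Taok2) and the angiomotins. Tead2 fills 70.9% to 85.8% of the TEAD bars in mature cells, and Taok3 fills 24.4% to 29.5% of the TAOK bars in LPs against 5.75% to 17.2% in mature cells.

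Among the 9 core kinases and adaptors, all tested, Lats1 was higher in mature cells and Taok3 was higher in LPs, and the other 7 did not pass. LATS1 is the kinase that phosphorylates YAP and TAZ. Lats1 was at 37.2, 30.8, 23.1 and 32.2 CPM in LPs and at 76.5, 83.5, 46.3 and 64.3 CPM in mature cells. All mature libraries lay above all LP libraries, with a log2 fold change of -1.13 ± 0.23 (SE, n = 4 per group, adjusted p = 0.00554), which is 2.19-fold higher in mature cells. That call held in all 19 other settings. Its paralogue Lats2 was at 27.2, 30.3, 34.7 and 22.2 CPM in LPs and 32.5, 49.4, 65.1 and 29.98 CPM in mature cells, which overlap, and its log2 fold change of -0.63 ± 0.28 missed the threshold (adjusted p = 0.125). A predicted gene annotated on the same strand, Gm49361, covers 45.7% of the Lats2 exon length, so reads there could be counted to either gene. Per kilobase of exon the LATS sum was 8.64 ± 0.618 (SD, n = 4) in LPs and 16.1 ± 2.33 (SD, n = 4) in mature cells.

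TAOK1 and TAOK3 are TAO kinases, which can activate MST kinases. Taok3 was the only 1 of the 31 tested Hippo genes whose LP libraries all exceeded the mature libraries. It was at 28.6, 27.0, 25.9 and 28.6 CPM in LPs, a narrow range, and at 16.3, 5.78, 18.3 and 10.1 CPM in mature cells. On the log2 scale LPs exceeded mature cells by 1.11 ± 0.34 (SE, n = 4 per group, adjusted p = 0.0361), or 2.16-fold higher in LPs, but the call was lost when any 1 of the 4 LP libraries or mature replicate 4 was left out, with adjusted p between 0.0611 and 0.0808. Taok1 lay the other way, at 175.4, 196.8, 183.4 and 160.0 CPM in LPs and 255.2, 222.2, 206.6 and 206.9 CPM in mature cells. Those ranges did not overlap, although the log2 fold change of -0.32 ± 0.14 did not pass (adjusted p = 0.134). Taok3 made up 26.6% ± 2.43 of the Taok1 and Taok3 sum per kilobase in LPs and 11.6% ± 4.82 in mature cells (SD, n = 4 each), and the sum itself was 19.6 ± 1.09 and 20.3 ± 2.30 CPM per kilobase.

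The MST kinases themselves differed little. Stk3, which encodes MST2, was at 69.4 to 85.0 CPM in LPs and 77.2 to 93.7 CPM in mature cells, with a log2 fold change of -0.12 ± 0.15 and a 95% interval from -0.41 to 0.16. Stk4, which encodes MST1, was at 14.4 to 24.6 CPM in LPs and 15.2 to 29.3 CPM in mature cells, with an interval from -0.76 to 0.45. Stk3 took 87.8% of the MST sum per kilobase in LPs and 87.7% in mature cells. Sav1, the adaptor that joins MST to LATS, was at 37.9, 17.7, 33.7 and 27.9 CPM in LPs and 52.2, 60.4, 47.4 and 38.9 CPM in mature cells. These did not overlap, and the log2 fold change of -0.76 ± 0.26 narrowly missed the threshold (adjusted p = 0.0518). With DESeq2 the adjusted p of Sav1 was 0.034. The gene Atl1 overlaps 52.9% of the Sav1 exon length on the opposite strand, and whether the counting used strand is not given in the sources used here. The MOB1 co-activators of LATS, Mob1a and Mob1b, had log2 fold changes of -0.01 ± 0.30 and 0.07 ± 0.18, and the sign of Mob1a reversed under several other settings.

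**Figure D3:**
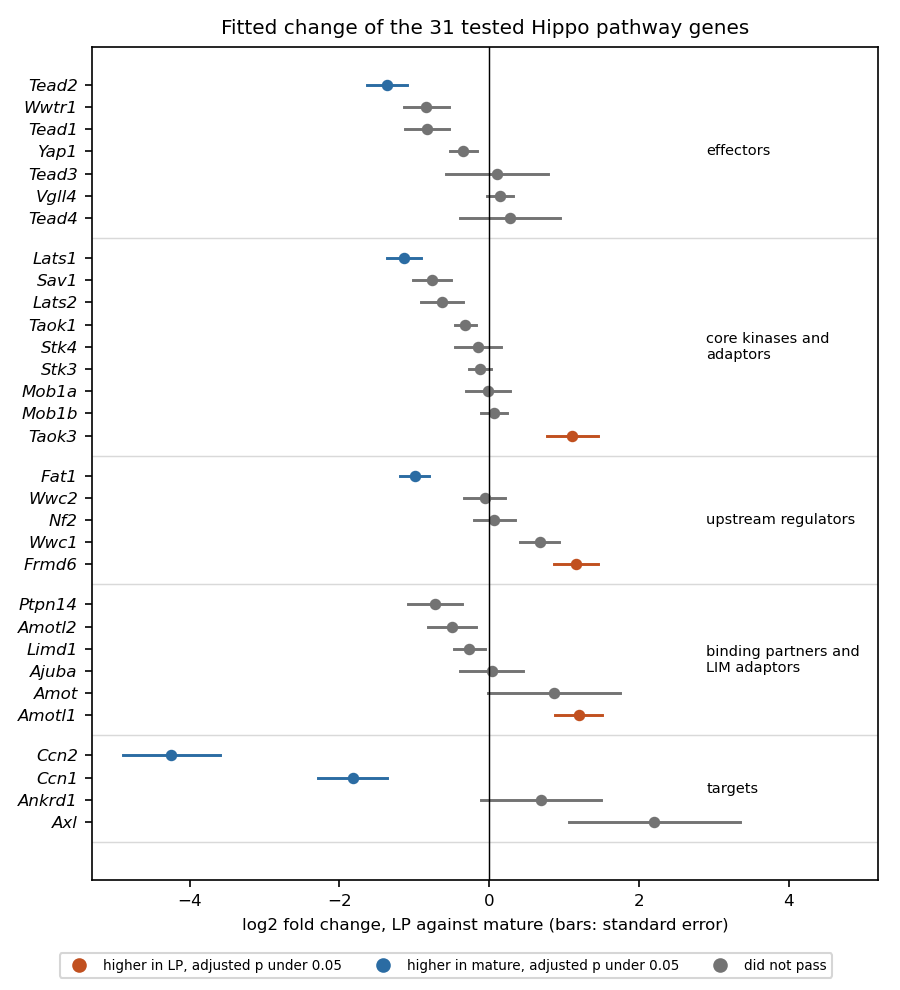
Fitted log2 fold change, LP against mature, of the 31 tested Hippo genes, ordered within each role; dots are estimates, bars are standard errors, and colour marks an adjusted p under 0.05. Ccn2 at -4.24 lies furthest from 0, and the 3 genes higher in LPs lie between 1.11 and 1.196.

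Upstream regulators receive signals from the membrane and junctions. Of 7 listed, 5 were tested, with Frmd6 higher in LPs and Fat1 higher in mature cells. FRMD6, also known as Willin, is a FERM-domain protein of the cell cortex. Frmd6 was at 63.0, 44.9, 88.0 and 78.0 CPM in LPs and 26.7, 19.2, 46.3 and 30.1 CPM in mature cells. The groups met only where mature replicate 3 at 46.3 CPM exceeded LP replicate 2 at 44.9 CPM. This gave a log2 fold change of 1.16 ± 0.29 (SE, n = 4 per group, adjusted p = 0.016), or 2.23-fold higher in LPs, and it lost its call in 2 of 19 other settings, both of which left out a replicate number in both groups.

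FAT1 is a giant protocadherin of cell junctions. Fat1 was at 35.1, 34.7, 52.1 and 49.0 CPM in LPs and 93.0, 68.8, 92.8 and 85.0 CPM in mature cells, with no overlap. Its log2 fold change was -0.99 ± 0.20 (SE, n = 4 per group, adjusted p = 0.00482), or 1.99-fold higher in mature cells, and it held in all 19 other settings. The related protocadherin genes Fat4 and Dchs1, a receptor and its ligand, were not tested. Fat4 had at most 0.141 CPM in any library, and Dchs1 had no counts in LPs and at most 1.69 CPM in mature cells.

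Wwc1, also called Kibra, a cortical scaffold that activates LATS with NF2, was at 60.1, 70.3, 83.0 and 39.7 CPM in LPs and 51.3, 27.6, 42.3 and 36.5 CPM in mature cells. LP replicate 4 lay inside the mature range, and the log2 fold change of 0.68 ± 0.26 did not pass (adjusted p = 0.0835). Without LP replicate 4 it was 0.85 with an adjusted p of 0.0365. Wwc2, its paralogue, and Nf2, which encodes Merlin, had log2 fold changes of -0.06 ± 0.28 and 0.07 ± 0.27, with 95% intervals from -0.61 to 0.48 and from -0.46 to 0.60.

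The angiomotins bind YAP and TAZ and hold them at junctions and in the cytoplasm. Of the 6 genes for binding partners and LIM adaptors, all tested, Amotl1 passed and was higher in LPs. Its level was 132.7, 124.4, 145.8 and 81.0 CPM in LPs and 41.6, 28.4, 52.6 and 87.8 CPM in mature cells. LP replicate 4 and mature replicate 4 crossed, and the other 3 LP libraries exceeded every mature library. The log2 fold change was 1.196 ± 0.32 (SE, n = 4 per group, adjusted p = 0.0198), or 2.29-fold higher in LPs. The call was lost without LP replicate 1, LP replicate 3 or mature replicate 1, where the adjusted p lay between 0.0503 and 0.0544.

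Amotl2, in contrast, did not pass. It was at 17.7, 9.34, 27.6 and 24.4 CPM in LPs and 32.9, 28.4, 27.0 and 23.4 CPM in mature cells, which overlap, with a log2 fold change of -0.50 ± 0.32 (adjusted p = 0.293). Amot itself was low, at 4.44 to 7.70 CPM in LPs and 0 to 7.68 CPM in mature cells, with a log2 fold change of 0.87 ± 0.88. Per kilobase of exon, Amotl1 held 71.1% ± 9.37 of the family in LPs and 44.2% ± 12.4 in mature cells, and Amotl2 held 24.1% ± 10.2 and 52.2% ± 14.6 (SD, n = 4 each). In mature replicate 4 Amotl1 held 60.5%, more than in LP replicate 4 with 59.3%. The phosphatase Ptpn14, which retains YAP in the cytoplasm, had a log2 fold change of -0.72 ± 0.36 (adjusted p = 0.176). The LIM proteins Ajuba and Limd1, which bind and restrain LATS kinases, had log2 fold changes of 0.04 ± 0.42 and -0.27 ± 0.21, neither of which passed.

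The 4 target genes did not move as a block: Ccn1 and Ccn2 were higher in mature cells, and Ankrd1 and Axl did not pass. CCN1 and CCN2, also known as CYR61 and CTGF, are secreted matricellular proteins. Ccn2 was at 2.904, 2.44, 8.97 and 3.47 CPM in LPs and 31.1, 61.2, 194.3 and 47.6 CPM in mature cells. Every mature library exceeded every LP library, and replicate 3 was the highest in both groups. The log2 fold change was -4.24 ± 0.65 (SE, n = 4 per group, adjusted p = 0.0014), with a 95% interval from -5.52 to -2.97. This is 18.9-fold higher in mature cells. Without mature replicate 3 the log2 fold change of Ccn2 was -3.36 (adjusted p = 0.000982), and without both libraries numbered 3 it was -3.97 (adjusted p = 0.000453). A non-coding transcript annotated on the opposite strand, Gm15270, overlaps 22.9% of the Ccn2 exon length.

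Ccn1 was at 127.1, 71.5, 258.6 and 252.5 CPM in LPs and 324.0, 658.5, 1092 and 431.7 CPM in mature cells. The groups did not overlap, and mature replicate 3 was again the highest library. For Ccn1 the log2 fold change was -1.82 ± 0.46 (SE, n = 4 per group, adjusted p = 0.0159), or 3.53-fold higher in mature cells. The adjusted p of Ccn1 was 0.0502 without LP replicate 1 and 0.0741 without both libraries numbered 2. Ccn1 and Ccn2 are also immediate-early genes. Of the 9 early-response and heat-shock genes tested, 6 were higher in mature cells as well, where 13.8% of all tested genes were higher. These were Fos, Jun, Atf3, Dusp1 and the heat-shock genes Hspa1a and Hspa1b. Ier2 was higher in LPs. Egr1 leaned to LPs (log2 fold change 1.17, adjusted p = 0.113) and Junb to mature cells (-0.55, adjusted p = 0.0834), and neither passed. The summed level of the list was 3272 to 14950 CPM in mature cells and 1393 to 1900 CPM in LPs. In mature replicate 3 most of it was the heat-shock genes Hspa1a at 8253 CPM and Hspa1b at 3779 CPM. Without both libraries numbered 3 the log2 fold change of Ccn1 was -1.65 (adjusted p = 0.0296). The other mature libraries, at 3272 to 3850 CPM for the list, also lay above all LPs. Leaving out replicate 3 therefore does not remove this response from the comparison. The part of the response in the Ccn1 and Ccn2 differences was not tested.

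Ankrd1, a cardiac ankyrin repeat protein gene, was at 7.26, 5.89, 62.1 and 5.83 CPM in LPs and 5.48, 6.83, 22.2 and 15.1 CPM in mature cells. LP replicate 3 stood far above every other library. Its fitted log2 fold change was 0.70 ± 0.81 (adjusted p = 0.571), and without LP replicate 3 it was -0.97 (adjusted p = 0.238), so the sign of Ankrd1 rested on 1 library. The receptor tyrosine kinase gene Axl was at 1.45, 6.61, 1.83 and 2.08 CPM in LPs and 0.141, 2.63, 0.144 and 0 CPM in mature cells. Its log2 fold change of 2.21 ± 1.14 did not pass (adjusted p = 0.185), and without mature replicate 2 it was 4.74 (adjusted p = 0.0162).

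**Figure D4:**
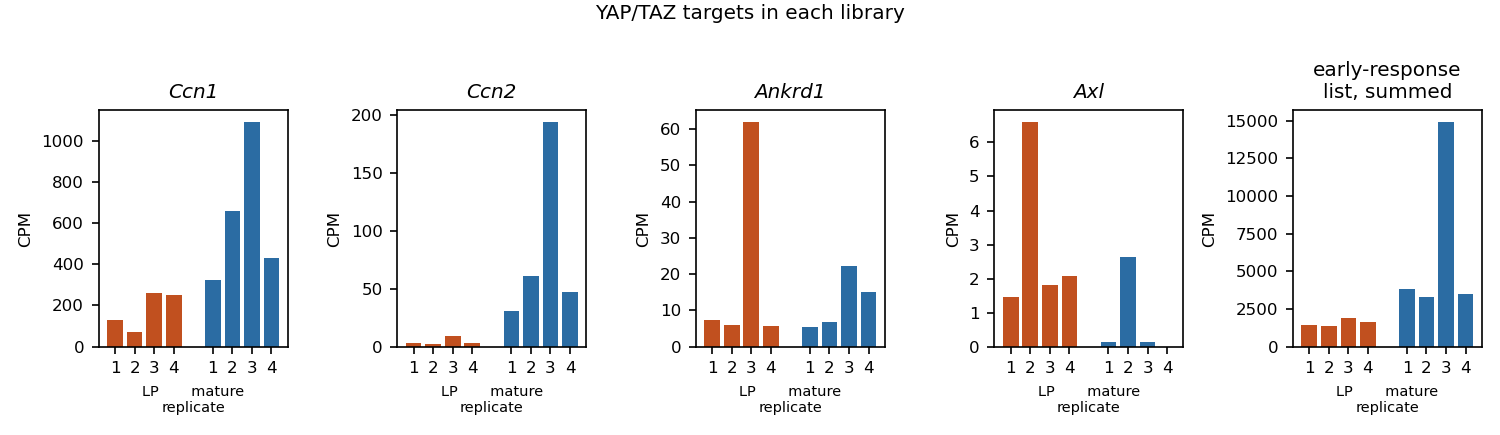
Level in CPM of the targets Ccn1, Ccn2, Ankrd1 and Axl, and the summed level of 10 early-response and heat-shock genes, in each LP library (orange) and mature library (blue); each panel has its own axis from 0. Mature replicate 3 is the highest library for Ccn1, Ccn2 and the early-response sum, and Hspa1a and Hspa1b hold most of that sum there. LP replicate 3, at 62.1 CPM, is the highest for Ankrd1.

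TEAD factors recognise the letters GGAATG, which read CATTCC on the other strand. This motif was searched on both strands of the RefSeq promoter windows of build mm10, each of 300 bases from 250 before to 50 after an annotated start, and 28 of the 34 genes had a window (not Tead1, Tead4, Stk3, Dchs1, Limd1 and Ccn2). Stretches from 3 target genes and from 4 pathway genes that hold the motif are shown 5′ to 3′ on the strand of the gene, with the motif in capitals; they are shown because TEAD factors read these letters.
Ccn1, chr3:145650071-145650100, minus strand, 97 bases before the start: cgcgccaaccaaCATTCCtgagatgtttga
Ankrd1, chr19:36120037-36120066, minus strand, 204 bases before the start: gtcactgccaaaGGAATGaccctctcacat
Ankrd1, chr19:36119950-36119979, minus strand, 117 bases before the start: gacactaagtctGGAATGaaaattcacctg
Axl, chr7:25788949-25788978, minus strand, 227 bases before the start: ggaaattctacaGGAATGtttaccagaccc
Fat1, chr8:44950094-44950123, plus strand, 96 bases before the start: cagtgtgggtggGGAATGcttgatgcataa
Wwtr1, chr3:57576029-57576058, minus strand, 130 bases before the start: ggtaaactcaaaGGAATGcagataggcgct
Amotl2, chr9:102717727-102717756, plus strand, 59 bases before the start: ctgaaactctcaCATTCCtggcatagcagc
Ptpn14, chr1:189728110-189728139, plus strand, 140 bases before the start: cctccccggacgCATTCCtggcccgcccag

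The motif was present in the window of 15 of the 26 tested Hippo genes that had one (57.7%), and in 14.4% of all tested genes with a window. Among the Hippo genes that passed the test and had a window, 2 of 7 held it, Fat1 and Ccn1. A window can lie at a later annotated start inside the gene, as for Fat1 (window chr8:44949958-44950257, gene from chr8:44933100). The promoters of Ankrd1 and Axl hold it too, and those genes did not pass. None of the 28 genes held a CArG box, the binding motif of SRF, or the AP-1 motif TGANTCA. Of all tested genes with a window, 1.66% held a CArG box and 6.35% the AP-1 motif. At those shares few or none would be expected among 28 genes. A match is a description of letters, not evidence of binding.

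The remaining genes of the pathway, 40 in a list of further Hippo kinases, phosphatase subunits, RASSF adaptors and other regulators, had 8 of 31 tested genes (25.81%) that passed, near the background of 24.7%. Higher in LPs were 2, the LIM adaptor gene Wtip with a log2 fold change of 1.997 (adjusted p = 0.024) and Strn, a striatin subunit of the phosphatase complex that turns MST kinases off, with 1.13 (adjusted p = 0.0143). Higher in mature cells were 6. Of the RASSF adaptors, which bind MST kinases, these included Rassf1 at -1.52 (adjusted p = 0.00139) and Rassf6 at -1.74 (adjusted p = 0.00329). Rassf5 lay the other way at 1.78 and did not pass (adjusted p = 0.16). Rassf1 ran from 32.1 to 73.2 CPM in LPs and from 152.3 to 180.8 CPM in mature cells. Btrc and Csnk1e encode the ubiquitin ligase subunit and a casein kinase that act in the degradation of YAP and TAZ, and their log2 fold changes were -0.83 (adjusted p = 0.00361) and -0.79 (adjusted p = 0.0148). The kinase gene Stk24 was at -0.86 (adjusted p = 0.0283) and the protocadherin gene Fat2 at -1.93 (adjusted p = 0.0249), the latter from no more than 5.78 CPM in any library. The median of the 31 was -0.16. The Vestigial-like genes Vgll1 and Vgll2 had no counts in any library.

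In a wider list of 20 genes known as targets of YAP and TAZ in other cells, 8 of 18 tested genes (44.44%) passed, beside the background of 24.7%, and the median log2 fold change was -0.45. The list was chosen with earlier results of these data known. Its share is therefore a description and not an independent comparison with the background. In mature cells 7 were higher. They were F3, which encodes tissue factor, at -3.09 (adjusted p = 0.00284), Gadd45a, a stress-response gene, at -2.27 (adjusted p = 0.000649), Dlc1 at -2.07 (adjusted p = 0.0118), Nuak2 at -1.92 (adjusted p = 0.0362), Rbms3 at -1.66 (adjusted p = 0.0146), Myof at -0.77 (adjusted p = 0.0174) and Ccdc80. F3 ran from 93.2 to 314.2 CPM in LPs and from 671.0 to 3059 CPM in mature cells. Ccdc80 was at or under 0.332 CPM in LPs and between 2.86 and 12.9 CPM in mature cells (adjusted p = 0.00118). In LPs 1 was higher, Thbs1, the gene of the matrix protein thrombospondin, at 989.6, 832.9, 626.4 and 704.8 CPM in LPs and 39.0, 69.1, 218.3 and 49.3 CPM in mature cells (log2 fold change 3.07 ± 0.51, adjusted p = 0.00211). Thbs1 thus ran opposite to Ccn1 and Ccn2.

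The study is concerned with TRPS1, an atypical GATA-type repressor, and with SRF and its cofactors of the MRTF family. Trps1 was at 520.7 to 753.7 CPM in LPs and 182.0 to 388.2 CPM in mature cells, with a log2 fold change of 1.27 ± 0.25 (adjusted p = 0.00438). Mrtfb was higher in LPs too, with a log2 fold change of 1.19 ± 0.17 (adjusted p = 0.000913) and no overlap between groups. Srf had a log2 fold change of -1.15 ± 0.60 (adjusted p = 0.188) and Mrtfa one of -0.54 ± 0.34 (adjusted p = 0.27), and neither passed.

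Under 19 other settings of the normalisation, the test, the filter and the libraries included, Tead2, Lats1, Fat1 and Ccn2 kept an adjusted p under 0.05 in every one. Ccn1 and Frmd6 kept it in 17, Amotl1 in 13 and Taok3 in 11. None of these 8 genes changed sign. Of the genes that had not passed, Wwtr1 passed in 5 settings and Tead1 and Sav1 in 4 each.

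**Figure D5:**
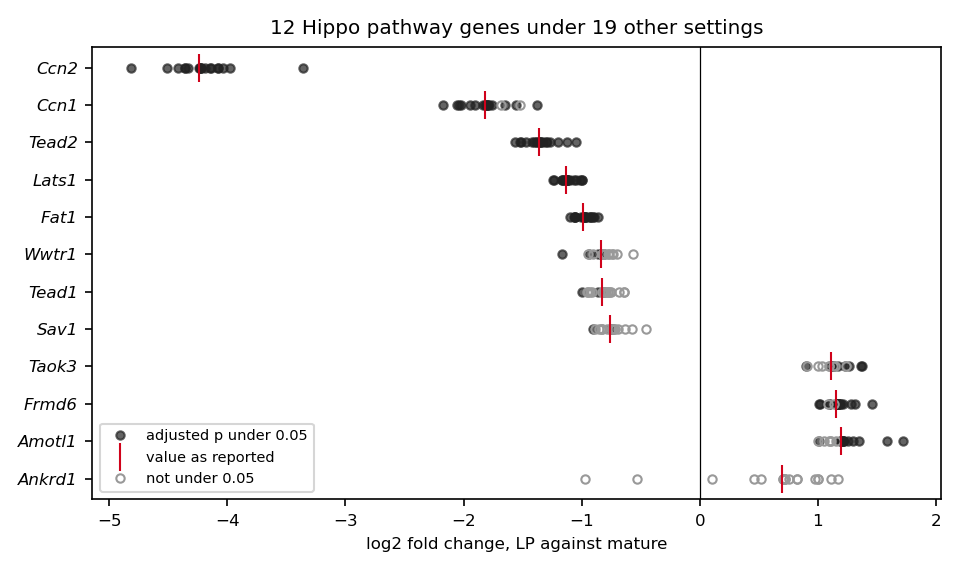
Log2 fold change, LP against mature, of 12 Hippo genes under 19 other settings; filled dots have an adjusted p under 0.05, open dots do not, and the red tick is the value reported above. Tead2, Lats1, Fat1 and Ccn2 have filled dots in all 19 settings, and Ankrd1 lies on both sides of 0.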

How the data were processed

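RNA was sequenced from 8 libraries of flow-sorted wild-type cells, 4 LP and 4 mature, after amplification of cDNA from a low RNA input. The deposited values are raw counts of reads per gene under Entrez identifiers. Per the submitters' processing notes, the authors trimmed reads with cutadapt (version 4.2) and aligned them with Bowtie2 (version 2.3.5.1), to mm10 per the methods. The counting program, annotation, treatment of strand and of reads with several matches are not given in the sources used here. PCR amplification without molecular identifiers means that counts are not independent molecules. The methods state 3 biological replicates per condition, and 4 libraries per group were used here.

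Symbols and coordinates were matched by identifier to RefSeq GRCm38.p6 (24570 of 24594). Of 24594 listed genes, 18975 had a count and 12816 passed filterByExpr. Counts were scaled by TMM factors and tested with edgeR (version 4.0.16), in R 4.3.3, by its quasi-likelihood test without a block, as LP minus mature, with Benjamini-Hochberg adjustment over all 12816 genes and a threshold of 0.05 on adjusted p. The common biological coefficient of variation was 0.393. CPM are counts scaled to 1000000 counts on tested genes after TMM scaling, with no added count, and levels per kilobase divide these by the union of exons in GENCODE M21, known for all 34 genes. The fitting script was tested on simulated data. Named were all 34 genes, the genes of the further lists that passed, and Srf, Mrtfa, Mrtfb and Trps1. Rassf5, which did not pass, and Vgll1 and Vgll2, which were not tested, were named as well. The members and lists were chosen with earlier results of these data known. Alternatives were DESeq2 (version 1.42.0), the likelihood ratio test, other scaling factors, 2 other filters, a replicate block and leaving out libraries.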

Additional observations from a re-analysis of the deposited data

Results flagged for a closer look

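Among the 34 Hippo genes, 13 groups of 4 libraries held 1 library whose gap to its nearest neighbour, as a share of the group's range, exceeded the 95% limit of Dixon's test for 4 values. If values were normally distributed, about 3.4 of the 67 groups examined would exceed it by chance. CPM need not be so distributed, several groups lay near 0, and all 13 exceeded the limit with their highest library. The 13 set beside 3.4 therefore does not measure an excess of outliers. LP replicate 3 was the high library for Ankrd1 (share 0.9745, at 62.1 CPM), Vgll4 (0.87, at 190.7 CPM), Ccn2 (0.8429, at 8.97 CPM) and Wwtr1 (0.8369, at 168.0 CPM). LP replicate 1 was high for Tead3 (0.935, at 7.26 CPM) and Vgll3 (0.873, at 1.31 CPM), and LP replicate 2 for Axl (0.8781, at 6.61 CPM) and Wwc2 (0.8446, at 40.1 CPM). In mature cells, replicate 2 was high for Axl (0.945, at 2.63 CPM), replicate 4 for Tead2 (0.8421, at 105.6 CPM) and replicate 1 for Dchs1 (0.8443, at 1.69 CPM). Fat4 had counts in only 1 library of each group, LP replicate 4 (1.0, at 0.139 CPM) and mature replicate 1 (1.0, at 0.141 CPM).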

How the results depend on the processing

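Over 19 alternatives, 516 of 585 log2 fold changes of the tested Hippo genes kept their direction and side of the threshold. Counts of genes that passed were judged separately, as unchanged within 1.5 times. The Hippo genes higher in mature cells went from 5 to 8 with DESeq2 and to 8 with the likelihood ratio test, which added Wwtr1, Tead1 and Sav1, and those higher in LPs stayed at 3 with both. Leaving out libraries, the counts ranged from 1615 to 3414 for all genes (lowest without replicate 2 in both groups), from 0 to 4 for Hippo genes higher in LPs (1 without LP replicate 1, 1 without LP replicate 3, 0 without replicate 1 and 1 without replicate 4 in both groups), from 4 to 7 for those higher in mature cells, from 3 to 9 for the further Hippo genes (5 without LP replicate 1 or 2) and from 5 to 10 for the wider targets. Mob1a reversed to 0.000 with RLE factors, 0.023 with upper-quartile factors, 0.056 without a filter, 0.006 where each library had to hold 10 counts or more and 0.021 with the replicate block. Leaving out libraries, log2 fold changes crossed 0 for Tead3 (-0.79 to 0.63), Tead4 (-0.073 to 0.59), Stk4 (-0.33 to 0.11), Mob1a (-0.25 to 0.27), Mob1b (-0.012 to 0.18), Nf2 (-0.069 to 0.21), Wwc2 (-0.24 to 0.17), Ajuba (-0.26 to 0.47) and Ankrd1 (-0.97 to 1.17). The cause was not tested. Tead3, Tead4, Amot and Axl gave no value under the filter of 10 counts, which limits them by depth. LP and mature libraries share replicate numbers, and their library names share a running number for each pair that could mark a mouse, but the labels do not say so, and the tests were made without pairing. Deviations of same-numbered libraries correlated at 0.113, 0.0618, 0.148 and 0.0844, and those of differently numbered libraries at -0.156 to 0.0779. Mature replicate 2 correlated best with LP replicate 1, and each other mature library with the LP library of its own number. With the replicate block 3027 genes passed, 3 Hippo genes were higher in LPs, 7 were higher in mature cells (Wwtr1 and Tead1 added), 7 further Hippo genes passed and 10 wider targets passed.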
